A study of Caenorhabditis elegans with 6 samples.

Results

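The GLP-1 to FBF and GLD circuit controls whether germ cells of the nematode Caenorhabditis elegans divide as stem cells or enter meiosis. It was examined through 10 genes, namely glp-1, lst-1, sygl-1, fbf-1, fbf-2, puf-8, gld-1, gld-2, gld-3 and nos-3. Members were all transcript records that the RefSeq annotation names with any of these symbols. The records were taken without regard to their values, but the genes were chosen with earlier results of these data known. The rule found 15 records of 9 of the genes, among 46074 named records of 39875 genes. No record was named fbf-2, which is not analysed here. RNA was taken from whole starved first-stage (L1) larvae that had hatched overnight in buffer, in 3 libraries of the wild-type strain N2 and 3 of progeny doubly mutant for spr-5 (allele by101, chromosome I) and met-2 (allele n4256, chromosome III). Animals of both groups were cultured on HT115 bacteria, and the count headers of all 6 libraries carry L4440, the name of an RNAi feeding vector that no label mentions. SPR-5 removes and MET-2 adds methyl groups on lysines of histone H3, and the comparison asked which genes are expressed differently in double mutant larvae. Whether replicates were grown separately is not stated in the labels, so the p-values below rest on a spread between libraries that may be technical.

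In the adult gonad, the Notch receptor GLP-1 on germ cells receives a ligand from the somatic distal tip cell and turns on lst-1 and sygl-1. The products of these genes work with the PUF RNA-binding proteins FBF-1 and FBF-2, which repress mRNAs of meiotic entry such as gld-1. The translational repressor GLD-1, working with the Nanos protein NOS-3, and the cytoplasmic poly(A) polymerase GLD-2 with its partner GLD-3 form branches that promote meiosis. Starved L1 larvae hold only a pair of primordial germ cells, so most RNA of a whole larva comes from somatic tissues.

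The libraries held 17062557 to 25368364 counts. Of 14557 records tested with edgeR's quasi-likelihood test, 25.9% changed at an adjusted p below 0.05, 14.3% rising and 11.7% falling in spr-5; met-2. The groups did not overlap in 43.6% of records, with spr-5; met-2 higher in 22.3%. Over all records the log2 fold changes had a median of -0.01, and scaling by library size only moved it to 0.21. The adult genes vit-2, vit-4, vit-5, perm-2 and perm-4 were highest in N2 replicate 3 and, within the mutant group, in replicate 2. The yolk gene vit-5 had 2, 18 and 891 counts in N2 replicates 1, 2 and 3, and 4, 149 and 25 in those of spr-5; met-2. The eggshell gene perm-4 had 3, 0 and 197 counts in N2 and 0, 28 and 0 in spr-5; met-2.

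Of the 9 circuit genes, each read from its best expressed record, 5 rose in spr-5; met-2 and 0 fell, against 14.3% and 11.7% of all records. The risers were the receptor gene glp-1, the PUF genes fbf-1 and puf-8, and the meiosis-promoting genes gld-1 and gld-3. The Notch target genes lst-1 and sygl-1, the Nanos gene nos-3 and the best expressed record of gld-2 did not pass the threshold. The median log2 fold change of the 9 genes was 0.97. In 7 of them all spr-5; met-2 libraries lay above all N2 libraries, against 22.3% of all records tested. These 7 include lst-1 and gld-2, which did not pass the threshold. In the authors' deposited table, 6 circuit records passed an adjusted p of 0.05, all 6 rising, and they were the records of these 5 genes and a second record of gld-2 described below. Since whole larvae were sequenced, more cells that carry a transcript and more transcript per cell cannot be told apart.

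**Figure D1:**
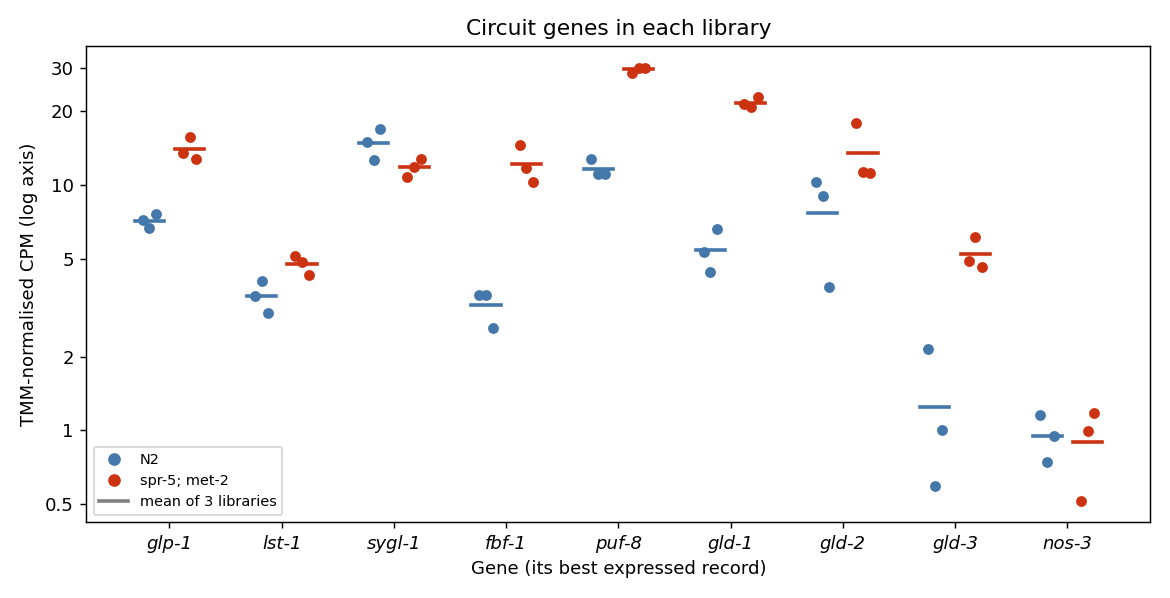
TMM-normalised CPM (counts scaled to library size, log axis) of the best expressed record of each of 9 circuit genes, with 1 point per library and a bar at the mean of 3 libraries. The points of N2 and spr-5; met-2 are apart for 7 genes, all with spr-5; met-2 higher, and they overlap for sygl-1 and nos-3.

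Levels are counts scaled to the size of the library, in TMM-normalised CPM. The receptor gene glp-1 stood at 7.20, 6.69 and 7.61 CPM in N2 replicates 1, 2 and 3 and at 13.5, 15.7 and 12.8 CPM in those of spr-5; met-2. All mutant libraries lay above all N2 libraries, with narrow spread in both groups. The mean level was 7.17 ± 0.463 CPM in N2 and 14.0 ± 1.51 CPM in spr-5; met-2 (SD, n = 3), and the log2 fold change 0.97 ± 0.17 (SE, adjusted p = 0.00518 by edgeR). An exonic overlap of 18 bases with ZK507.1 on the opposite strand covers 0.4% of the glp-1 exons.

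Neither Notch target gene passed the test. Levels of lst-1, whose product is an FBF partner, were 3.52, 4.06 and 3.0 CPM in N2 and 5.17, 4.85 and 4.31 CPM in spr-5; met-2. The groups did not overlap, but the log2 fold change of 0.43 ± 0.22 (SE) did not pass (adjusted p = 0.190 by edgeR, 95% interval -0.07 to 0.94). For sygl-1, which encodes the other FBF partner, N2 libraries held 14.9, 12.7 and 17.03 CPM and spr-5; met-2 libraries 10.9, 11.9 and 12.8 CPM. These groups overlapped, and the highest of the 6 values was that of N2 replicate 3. The log2 fold change of sygl-1 was -0.33 ± 0.17 (SE, adjusted p = 0.206 by edgeR, 95% interval -0.73 to 0.07), so a log2 rise above 0.07 lies outside the interval under TMM scaling. This bound depends on the scaling, as with library size only the log2 fold change was -0.11 (adjusted p = 0.747 by edgeR).

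Because a ratio of counts within one library is free of scaling, it was used to ask whether circuit genes changed unequally, and 6 ratios were compared. The log2 ratio of sygl-1 to glp-1 counts was 1.05, 0.92 and 1.16 in N2 and -0.31, -0.41 and -0.004 in spr-5; met-2. Every N2 library thus held more sygl-1 than glp-1 reads and no mutant library did, with near-equal counts in mutant replicate 3. The mean difference was -1.28 (exact two-sided permutation p = 0.1, the smallest that 3 against 3 libraries allow, and 0.15 after adjustment over the 6). With same-numbered libraries taken as pairs, an exact sign-flip test gave p = 0.25, the smallest that 3 pairs allow, so no ratio could pass either test. The ratio of lst-1 to glp-1 lay below its N2 range in all mutant libraries as well, with means of -1.03 ± 0.309 and -1.55 ± 0.157 on the log2 scale (SD, n = 3, exact permutation p = 0.1). Both of these ratios were chosen after the levels were seen. Between the Notch targets themselves, the log2 ratio of sygl-1 to lst-1 was 2.07 ± 0.428 in N2 and 1.31 ± 0.252 in spr-5; met-2, again without overlap (SD, n = 3, exact permutation p = 0.1).

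The PUF repressor genes were higher in every mutant library. The gene fbf-1 stood at 3.57, 3.57 and 2.60 CPM in N2 and at 14.6, 11.7 and 10.4 CPM in spr-5; met-2. The lowest mutant library lay well above the highest N2 library. Its log2 fold change was 1.91 ± 0.23 (SE, 3.76-fold, adjusted p = 0.000853 by edgeR). FBF-1 and FBF-2 are close paralogs, so reads that fit both genes may be missing from or shared between their records. For puf-8, a PUF gene that restrains germ cell proliferation and the return of spermatocytes to mitosis, N2 libraries held 12.8, 11.1 and 11.1 CPM and spr-5; met-2 libraries 28.8, 30.1 and 30.2 CPM. Its mutant libraries were nearly equal, and the log2 fold change was 1.35 ± 0.14 (SE, 2.55-fold, adjusted p = 0.000358 by edgeR).

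Among the meiosis-promoting genes, gld-1 stood at 5.33, 4.41 and 6.66 CPM in N2 and at 21.6, 20.9 and 22.8 CPM in spr-5; met-2. No libraries of the groups overlapped, and within N2 the highest value was that of replicate 3. The log2 fold change was 1.99 ± 0.19 (SE, 3.97-fold, adjusted p = 0.000282 by edgeR). In relation to fbf-1, whose product represses it, gld-1 had log2 ratios of counts of 0.57, 0.30 and 1.35 in N2 and 0.56, 0.83 and 1.14 in spr-5; met-2. The groups overlapped, and the mean difference of 0.10 was far smaller than the spread within N2 (exact permutation p = 0.8). The log2 ratio of gld-1 to the best expressed gld-2 record was -0.94, -1.04 and 0.78 in N2 and 0.26, 0.88 and 1.02 in spr-5; met-2, and here too the groups overlapped (mean difference 1.12, exact permutation p = 0.2).

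The gene gld-3, whose Bicaudal-C family product partners GLD-2, was read from low counts. Its best expressed record held 39, 12 and 20 counts in N2 and 95, 112 and 131 in spr-5; met-2, or 2.14, 0.594 and 1.0 CPM and 4.91, 6.18 and 4.66 CPM. The groups were apart, with a wide spread in N2. The log2 fold change was 2.08 ± 0.43 (SE, 4.22-fold, adjusted p = 0.0109 by edgeR). Leaving out 1 library at a time gave 1.73 (without N2 replicate 2) to 2.69 (without N2 replicate 1). The largest adjusted p among these fits was 0.0418 by edgeR (without N2 replicate 3). In relation to the best expressed record of gld-2, gld-3 had log2 ratios of counts of -2.25, -3.88 and -1.92 in N2 and -1.87, -0.87 and -1.26 in spr-5; met-2, without overlap (mean difference 1.35, exact permutation p = 0.1). A second gld-3 record had 1, 3 and 6 counts in N2 and 3, 14 and 14 in spr-5; met-2 and was too low to be tested. The Nanos gene nos-3 had only 21, 15 and 19 counts in N2 and 10, 18 and 33 in spr-5; met-2. These overlapped, and the log2 fold change of -0.07 ± 0.39 (SE, adjusted p = 0.920 by edgeR) had a 95% interval from -0.98 to 0.85, so a change of up to nearly 2-fold either way was not detectable at this depth. Its second record was at 0 in all libraries.

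**Figure D2:**
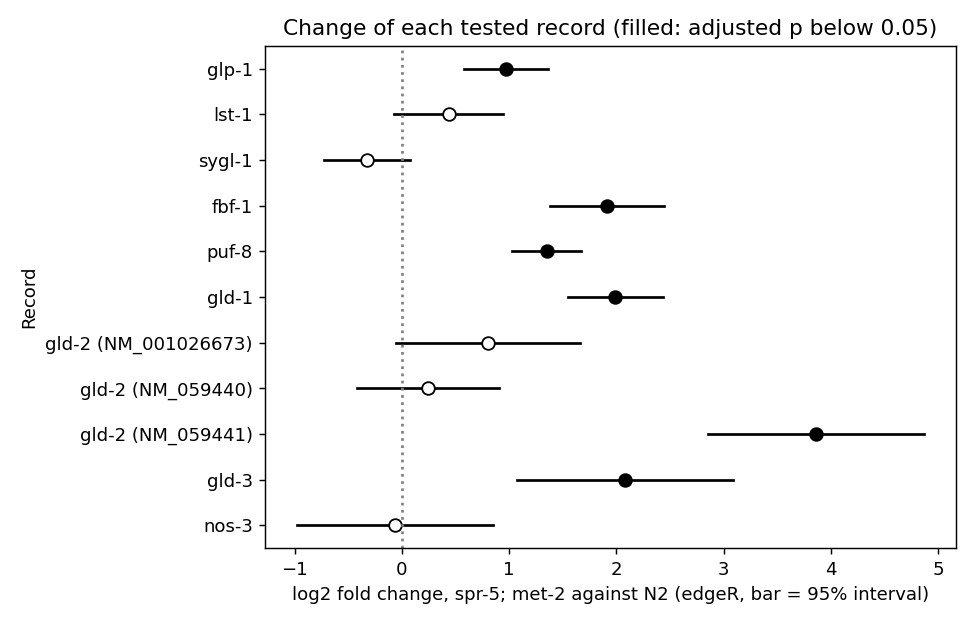
Log2 fold change of spr-5; met-2 against N2 (edgeR) for the 11 circuit records tested, with bars for the 95% interval and filled points for an adjusted p below 0.05. The 6 filled points lie between 0.97 for glp-1 and 3.86 for the gld-2 record NM_059441, and the bars of the 5 open points include 0.

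The poly(A) polymerase gene gld-2 had 5 records, of which 3 held counts, and these moved unequally. The most abundant, NM_001026673, stood at 10.3, 9.06 and 3.86 CPM in N2 and at 17.99, 11.3 and 11.2 CPM in spr-5; met-2. The groups were apart, but N2 replicate 3 and spr-5; met-2 replicate 1 stood away from their groups. Its log2 fold change of 0.80 ± 0.37 (SE) missed the threshold (adjusted p = 0.153 by edgeR) and passed with the replicate number as a block (log2 fold change 0.87, adjusted p = 0.0243 by edgeR). The record NM_059440 held 6.05, 6.19 and 3.20 CPM in N2 and 6.82, 5.24 and 6.23 CPM in spr-5; met-2, overlapping values with a log2 fold change of 0.25 ± 0.29 (SE, adjusted p = 0.575 by edgeR).

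The third record, NM_059441, was close to absent in N2. It had 10, 5 and 3 counts there and 108, 75 and 115 in spr-5; met-2, which is 0.316 ± 0.208 against 4.604 ± 0.848 CPM (SD, n = 3). Every mutant library was several times above every N2 library. The log2 fold change was 3.86 ± 0.44 (SE, 14.5-fold, adjusted p = 0.000616 by edgeR). The record passed the count filter only through the spr-5; met-2 libraries, where it was high. Leaving out 1 library at a time gave 3.50 (without N2 replicate 3) to 4.47 (without N2 replicate 1). As a share of all gld-2 counts of a library, this record made up 3.26%, 1.597% and 2.08% in N2 and 18.4%, 20.0% and 19.0% in spr-5; met-2. The share of NM_059440 was 40.1% ± 4.31 in N2 and 25.6% ± 3.25 in spr-5; met-2 (SD, n = 3), without overlap, and the share of NM_001026673 overlapped between groups at 57.6% ± 3.79 and 55.3% ± 3.60.

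A test of unequal change among the records of a gene, chosen after these values were seen, was run over all genes with several tested records. Of 606 such records, 0.165% passed edgeR's diffSpliceDGE at an adjusted p of 0.05, a single record that was NM_059441 of gld-2 (log2 change relative to the whole gene 2.07, adjusted p = 0.00493). As that record entered the test only through the libraries in which it was high, the test is no separate support for its rise. Among 280 genes, 3.21% passed the gene-level form of the test, gld-2 among them (adjusted p = 0.00620 by edgeR). The record call was lost when N2 replicate 2 (adjusted p = 0.347), the mutant replicate 2 (0.0721) or the mutant replicate 3 (0.0749) was left out, while the relative change stayed between 1.88 and 2.36. With limma's diffSplice the record passed as well (adjusted p = 0.0367), as 1 of 5. The Ensembl annotation gives gld-2 6 transcripts with 6 different starts and places 30.2% of its exonic bases in all of them. Reads from such shared bases fit several records and may be missing from the counts. Which transcript each record stands for is not given in the sources used here.

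**Figure D3:**
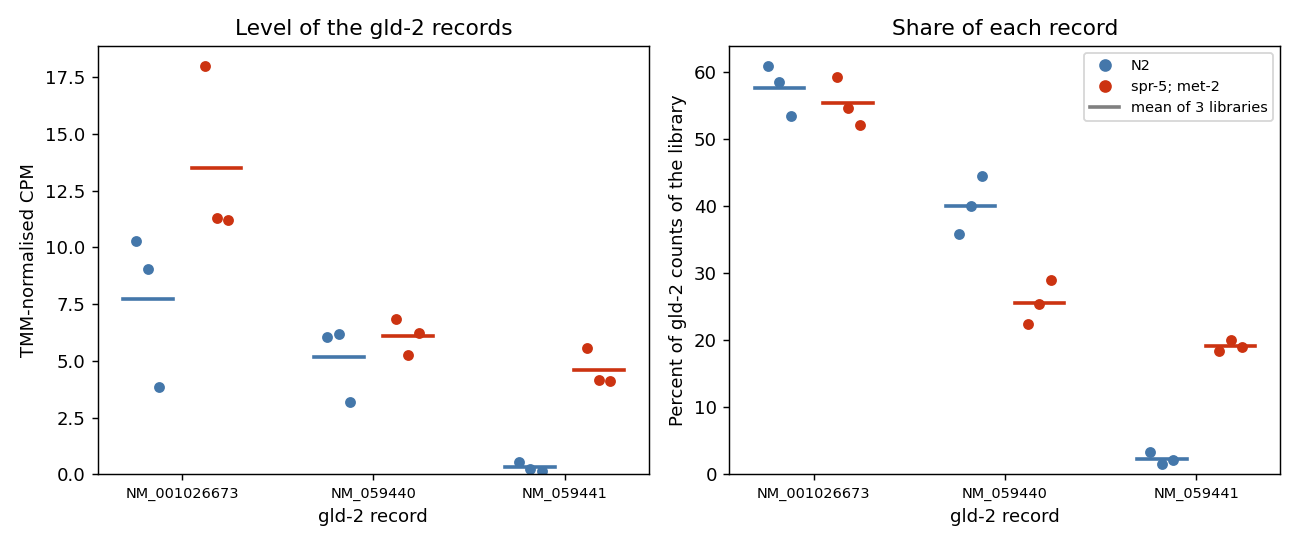
Levels of the 3 gld-2 records with counts (left, TMM-normalised CPM) and their share of all gld-2 counts of a library (right, percent), with 1 point per library and a bar at the mean of 3. The record NM_059441 lies below 1 CPM in all N2 libraries and above 4 CPM in all spr-5; met-2 libraries.

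Levels can be compared between genes only per length, and only for the 6 circuit genes with a single record. In N2, the order by CPM per kilobase of exon was sygl-1 (17.8 ± 2.59), puf-8 (6.41 ± 0.540), lst-1 (2.53 ± 0.380), gld-1 (2.46 ± 0.510), glp-1 (1.66 ± 0.107) and fbf-1 (1.44 ± 0.247; SD, n = 3). Libraries of lst-1 and gld-1, and those of glp-1 and fbf-1, overlapped in this order. In spr-5; met-2 the order by CPM per kilobase was puf-8 (16.3 ± 0.420), sygl-1 (14.1 ± 1.17), gld-1 (9.80 ± 0.447), fbf-1 (5.43 ± 0.966), lst-1 (3.43 ± 0.314) and glp-1 (3.24 ± 0.349). Only the last neighbours, lst-1 and glp-1, overlapped there. The places of sygl-1 and lst-1 were thus lower in the mutant order and those of puf-8 and fbf-1 higher. By mean, gld-1 also moved up and glp-1 down, but these moves rest on places where libraries of neighbours overlapped.

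**Figure D4:**
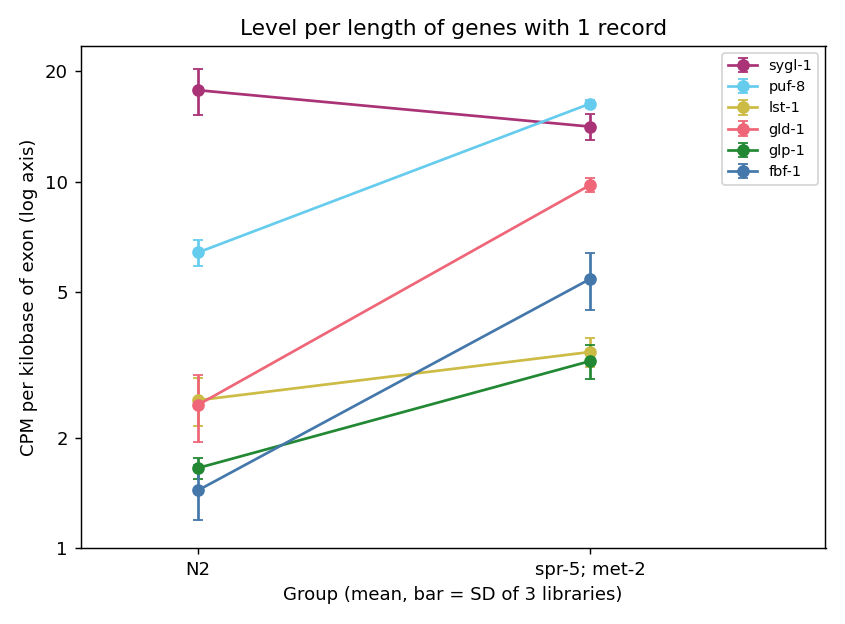
Mean level per length (CPM per kilobase of exon, log axis, bars for the SD of 3 libraries) of the 6 circuit genes with a single record, with a line from N2 to spr-5; met-2 for each gene. The line of sygl-1 runs from 17.8 to 14.1 and is crossed by that of puf-8, and the line of gld-1 rises away from that of lst-1.

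The remaining genes of the pathway are given as lists, in which a gene counts once by its best expressed record. For these and all later lists, the shares to compare are 14.3% rising and 11.7% falling among all records tested. Of 17 genes of Notch signalling machinery, 11 were tested, 2 rose and 0 fell, and their log2 fold changes had a median of 0.42. The risers were thus near the share among all records. The risers were ego-1, an RNA-dependent RNA polymerase gene known from a screen for enhancers of glp-1, at 8.26 ± 1.42 CPM in N2 and 24.9 ± 2.63 CPM in spr-5; met-2 (SD, n = 3, log2 fold change 1.59, adjusted p = 0.000681 by edgeR), and the metalloprotease gene adm-4 at a log2 fold change of 0.48 (adjusted p = 0.0411 by edgeR). The count was 1 without any one of the N2 replicates or of spr-5; met-2 replicates 2 and 3, and 4 with library size only. Named outside the rule after their values were seen, the other Notch receptor gene lin-12 was at -0.24 (adjusted p = 0.287 by edgeR), the ligand gene lag-2 at -0.26 (adjusted p = 0.703 by edgeR) and the transcription factor gene lag-1 at 0.66 (adjusted p = 0.254 by edgeR).

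Of 27 genes for RNA-binding partners and poly(A) enzymes, 17 were tested, 6 rose and 0 fell, and the log2 fold changes had a median of 0.16. The gene rnp-8, whose product binds GLD-2 in competition with GLD-3, went from 3.16 ± 0.227 to 24.1 ± 1.88 CPM (SD, n = 3, log2 fold change 2.93, adjusted p = 2.2e-05 by edgeR). The oogenesis gene daz-1 was at 2.33 and the CPEB-family gene cpb-1 at 3.69 on the log2 scale, and cpb-3, ccr-4 and teg-4 rose as well, at 2.42, 1.74 and 0.60. The ccr-4 value is that of the best expressed of its 4 records, with 34, 25 and 18 counts in N2. With the records of each gene summed, 5 genes of this list rose. Of 9 other PUF genes, 7 were tested, 4 rose and 0 fell, with a median of 2.34. They included puf-7 at 3.51, puf-6 at 2.86 and puf-11 at 2.34 (log2 fold change), which act in oogenesis. As puf-6 and puf-7 are close paralogs, single values are uncertain.

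For mRNAs that FBF is known to bind or repress, 10 of 16 genes were tested, 6 rose and 0 fell, and the log2 fold changes had a median of 1.30. The listed genes gld-1 and fbf-1 are circuit genes counted above. The meiotic HORMA domain genes htp-1 and htp-2 rose, with htp-2 going from 2.15 ± 0.206 to 12.1 ± 0.376 CPM (SD, n = 3, log2 fold change 2.49, adjusted p = 8.9e-05 by edgeR). For mRNAs known as GLD-1 targets, 12 of 15 genes were tested, 7 rose and 0 fell, with a median of 0.90, and 4 rose without spr-5; met-2 replicate 3. The p53-family gene cep-1 went from 3.39 ± 0.515 to 16.6 ± 1.18 CPM (SD, n = 3, log2 fold change 2.29, adjusted p = 0.000138 by edgeR). The PUF gene puf-5, also on the PUF list, had 1.26, 1.88 and 4.81 CPM in N2 and 18.2, 19.4 and 14.2 CPM in spr-5; met-2, and glp-1 is the circuit gene on this list. The untested genes of both target lists had records with few or 0 counts, or, for fbf-2, no record. Those with records had several each, and reads that fit several records may be missing, so low counts do not show that these genes were silent.

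**Figure D5:**
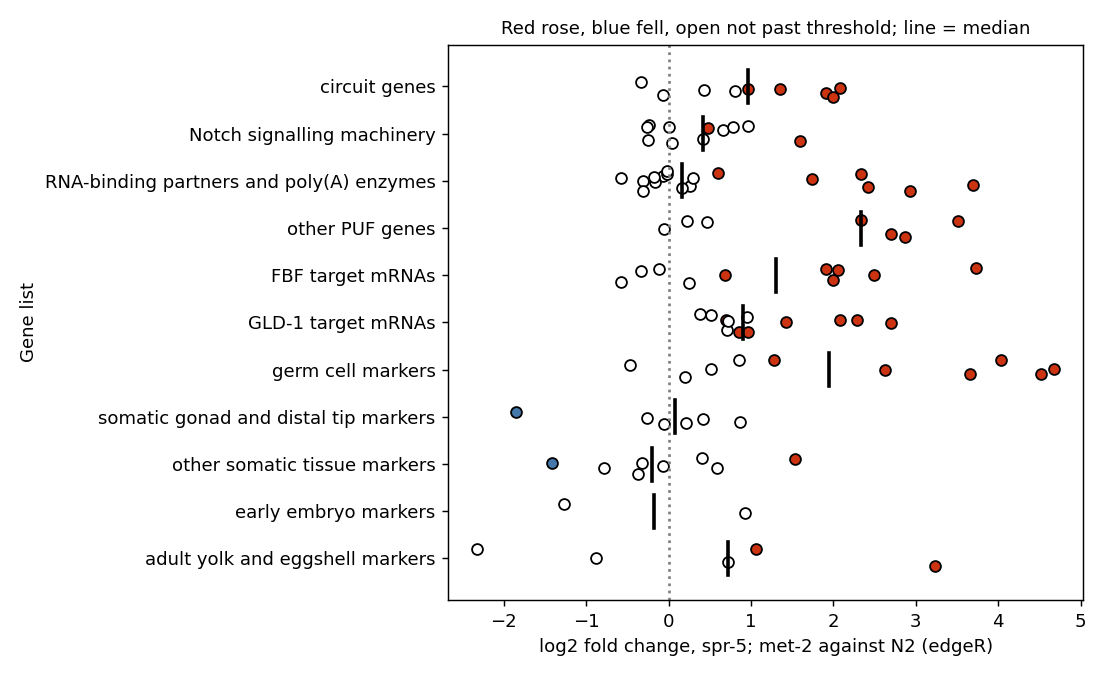
Log2 fold change of spr-5; met-2 against N2 (edgeR) of each tested gene by list, with red points for genes that rose, blue points for genes that fell, open points for genes that did not pass, and a line at the list's median. The medians of the circuit genes, the PUF genes and both target lists lie between 0.90 and 2.34, and those of the somatic gonad and other somatic markers at 0.08 and -0.20.

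Several markers of germ cells rose beside the circuit genes. Of 11 markers 10 were tested, 6 rose and 0 fell, with a median log2 fold change of 1.95, and their summed level was 148 to 193 CPM in N2 and 1352 to 1445 CPM in spr-5; met-2. The smallest adjusted p-values were those of the Piwi gene prg-1 (log2 fold change 4.52), the helicase gene glh-1 (3.66) and deps-1 (4.68). Most of the summed level in spr-5; met-2 came from prg-1 at 636 ± 11.7 CPM and glh-1 at 566 ± 31.2 CPM (SD, n = 3). The 4 tested markers that did not pass were glh-4 (log2 fold change 0.86), xnd-1 (0.51), mes-2 (0.20) and pie-1 (-0.46), and the record of pgl-1 was at 0 in all libraries. RefSeq names 2 pgl-1 transcripts and only 1 had a record, so these 0 counts do not show that pgl-1 was silent. The part of germ cell number in the circuit results was not tested. Of 11 markers of the somatic gonad and distal tip, 6 were tested, 0 rose and 1 fell, with a median of 0.08 and a summed level of 56.4 to 66.3 CPM in N2 and 52.5 to 67.04 CPM in spr-5; met-2. Most of this sum came from lim-7, at 39.2 ± 3.74 CPM in N2 and 37.7 ± 5.87 CPM in spr-5; met-2 (SD, n = 3). The gene that fell was the gonadal forkhead gene fkh-6, from 4.42 ± 0.948 to 1.22 ± 0.0414 CPM (SD, n = 3, log2 fold change -1.85, adjusted p = 0.00205 by edgeR). None of these 11 was at 0 in all libraries.

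Other tissues and stages were checked in the same way. Of 10 markers of muscle, intestine, epidermis and neurons, 8 were tested, 1 rose and 1 fell, both intestinal, the GATA factor gene elt-2 at 1.54 and the esterase gene ges-1 at -1.41 (log2 fold change), and the records of elt-1 and rgef-1 were at 0 in all libraries. These 2 genes have 4 and 2 records, and reads that fit several records may be missing from the counts. Their 0 counts therefore do not show that they were silent. The summed level of this list was 14640 to 24990 CPM in N2 and 15150 to 18000 CPM in spr-5; met-2. Nearly all of it came from the muscle genes unc-54, myo-2 and myo-3, with N2 means of 9674, 7872 and 1190 CPM. The sum therefore does not describe intestine, epidermis or neurons. Named outside the rule, the epidermal gene dpy-7 did not pass, with a log2 fold change of 0.59 ± 1.13 (SE). It had 42, 911 and 85 counts in N2 and 92, 968 and 557 in spr-5; met-2, so replicate 2 was highest in both groups. Early embryo markers summed to 2.53 to 3.46 CPM in N2 and 2.37 to 2.74 CPM in spr-5; met-2, and 2 of 10 were tested, with 0 calls at an adjusted p of 0.05 in edgeR and 1 fall in DESeq2 (edgeR unadjusted p = 0.0151 for ceh-51, the most abundant). Of 11 adult yolk and eggshell markers, 5 were tested, 2 rose and 0 fell, the eggshell genes cbd-1 at 3.23 and cpg-1 at 1.06 (log2 fold change). The summed level of this list was 33.9, 25.9 and 150 CPM in N2 and 166, 199 and 151 CPM in spr-5; met-2. Most of it in spr-5; met-2 came from cbd-1, at 126, 112 and 105 CPM. In N2 replicate 3 the largest part was vit-5, at 44.6 CPM, so similar sums stand for different genes. The yolk genes followed single libraries and not the groups. Without N2 replicate 3 and, in turn, without spr-5; met-2 replicate 2, 5 circuit genes still rose.

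The genes whose pattern over the 6 libraries correlated most with that of gld-1, by Pearson correlation of log2(CPM + 1) among 12452 genes, were him-6, F54D12.10 and C23G10.14 (r = 0.9999, 0.998 and 0.998). Such a correlation ignores the level and the size of the change. F54D12.10 was close to absent in N2, at 0.068 ± 0.076 CPM (SD, n = 3). The gene him-6, which encodes a RecQ helicase, went from 15.9 ± 1.16 to 27.2 ± 0.585 CPM (SD, n = 3), a log2 fold change of 0.78 against 1.99 for gld-1. Those most correlated with glp-1 were K08F4.3, F45E10.2 and chdp-1 (r = 0.999, 0.998 and 0.997), of which F45E10.2 was low in N2, at 0.464 ± 0.0587 CPM (SD, n = 3). These correlations describe a search over many genes with 2 separate groups of 3 libraries, whose points share library depth and scaling.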

How the data were processed

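Raw counts of reads per RefSeq transcript record were deposited by the authors as 1 table for each of 6 libraries. The submitters' processing notes name ce10 as the build and FastQC, Trimmomatic, featureCounts and DESeq2 (2.11.40.2) as tools, and per the file headers the aligner was HISAT2; L4440, a vector name, also stands in the headers. For strand and shared reads the setting is not given in the sources used here. A comparison table, also deposited by the authors, holds a base mean signal, the log2 fold change with its standard error and Wald statistic (both scores), and p-values before and after adjustment.

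Records were named from a RefSeq gene table of assembly WBcel235, and exonic lengths, transcripts and overlaps came from an Ensembl annotation of WBcel235. That is not the authors' build, so no coordinates are given. All records were fitted after a filterByExpr filter (minimum count of 10, minimum total of 15) with TMM scaling and edgeR's quasi-likelihood test (edgeR 4.0.16, R 4.3.3), which is two-sided, and p-values were adjusted by Benjamini-Hochberg over all 14557 records with a threshold of 0.05. The SE is the size of the log2 fold change divided by the square root of F. The code was tested on simulated data. For ratios 0.5 was added to each count; with no record of fbf-2, 1 planned ratio was not made and gld-1 was set against fbf-1 alone, and the paired test of the ratios was added after the data were seen. The members, lists and tests were chosen with earlier results of these data known. Named are all circuit genes, up to 3 genes per list with the smallest adjusted p past the threshold, and the most abundant gene of a list without a call. Alternatives were other scalings, filters and tools, summed records, a stricter threshold, the replicate block and each library left out. Same-numbered libraries deviated together from their group means (correlations of 0.506, 0.405 and 0.236 over records for numbers 1, 2 and 3). The numbers were therefore taken to pair the libraries in the replicate block and in the paired test of the ratios. The main fit, from which the calls and shares above come, used the group only and no pairs.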

Additional observations from a re-analysis of the deposited data

How the results depend on the processing

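The count of rising circuit genes was 5 in every alternative other than the replicate block, where it was 6 with gld-2 added, and an adjusted p below 0.01, where it was 4; the count of falling ones was 0 throughout. The blocked fit changed no other circuit call. It gave 2755 rising and 2374 falling records, against 2075 and 1698 in the main fit. Rising genes were 3 of the Notch machinery, 8 GLD-1 targets and 7 germ cell markers, against 2, 7 and 6. The block also moved the count of other somatic tissue markers to 2 rising and 2 falling. The count of early embryo markers moved to 1 falling, as it did with DESeq2. With library size only, 827 records fell, 4 Notch machinery genes rose and nos-3 turned to 0.17. Without a count filter 1 Notch machinery gene rose. At an adjusted p below 0.01, 1214 records rose and 665 fell, and 1 Notch machinery gene, 3 GLD-1 target genes and 1 adult yolk and eggshell gene rose, against 2075, 1698, 2, 7 and 2. Leaving out 1 library at a time gave 1410 to 2046 rising and 800 to 1803 falling records, 1 to 2 rising Notch machinery genes, 4 to 7 rising GLD-1 target genes, 1 to 2 rising yolk and eggshell genes (1 without spr-5; met-2 replicate 2), and a gld-1 to fbf-1 log2 ratio difference of -0.12 to 0.40. The log2 fold change of the gld-2 record NM_059440 was -0.028 to 0.40 with 1 library left out and that of nos-3 -0.33 to 0.20, with -0.028 for lack of N2 replicate 3, 0.08 for lack of N2 replicate 1 and 0.20 for lack of mutant replicate 1; neither was ever called, and the cause was not tested. At 1 CPM in 3 libraries nos-3 was not tested. Low counts limit nos-3, gld-3 and the N2 level of NM_059441.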
